A study of Mus musculus with 15 samples.

Results

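The regions described here are 1607 stretches of the mouse autosomes in which no list of decreased H2A.X domains has a domain. On each of the 19 autosomes the span from the lowest start to the highest end in any of the 10 deposited lists was divided into bins of 1300 bp, and neighbouring bins in none of the lists were joined. A joined stretch of at least 10 bins (13 kb) is called a gap. The lists divide the span into 3347 runs of bins, of which 1683 are covered by at least 1 list, 1607 are gaps and 57 are uncovered runs shorter than 10 bins. The gaps were thus selected on the domain positions in all 10 lists, so the values below are descriptions and carry no test. A gap is a place where no sample was called decreased; the lists do not say whether H2A.X was high or unmeasured there.

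H2A.X is a variant of histone H2A that is built into nucleosomes along the genome and is known for the phosphorylation of its tail around DNA double-strand breaks. Its share of nucleosomes differs between regions of a chromosome, and in embryonic stem cells the protein is abundant. Broad domains with less of a histone variant than a control leave between them places where no decrease was called. The lists alone do not tell how much of the variant such places hold.

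The cells were mouse embryonic stem cell lines, male and female, derived from blastocysts of a 129S6 X C57B6 cross, and the sex of each line is not among the labels used here. H2A.X was immunoprecipitated from nuclease-digested chromatin without crosslinking. Cultures in 2i/LIF, a medium with LIF in which 1 µM PD0325901 inhibits Mek and 3 µM CHIR99021 inhibits Gsk3, gave 3 lists (of lines 34, 35 and 37). Cultures labelled 2i/LIF then Serum/LIF, below called switched, gave 2 lists, of lines 34 and 37. Serum/LIF cultures, grown with serum and LIF on irradiated feeder cells, gave 3 lists titled XS (lines 30, 31 and 32) and 2 titled S (lines 35 and 37); what S and XS stand for is not given. XS lists come from other lines than the remaining lists, so culture and line cannot be told apart for them. The lists give no read counts, and the depth behind each is unknown. All cultures had LIF, and the labels name no genetic change in any line. The 8 lists outside the S group covered 30.5% to 78.2% of the span and are called the wide lists, whereas the S lists of lines 35 and 37 covered 0.0382% and 0.381%. The direction of a domain was taken from the name of its list. A value per domain in column 5, deposited without a definition, was above 0 in all 26 and 130 domains of the S lists but in only 0.0455% to 16.8% of the domains of the wide lists, so it is not settled that a domain means the same change in both. Samples labelled input or IgG have no list here, so no background level was available.

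The gaps were mostly short, and a few long ones held much of the length. Together they took up 201.3 Mb, which was 8.35% of the span of 2412.2 Mb. The median length was 74.1 kb, the middle 50% of gaps lay between 40.3 and 135.2 kb, and the range was 13 kb to 7118.8 kb. The 236 longest gaps, 14.7% of all, held 50% of the gap length, and the shortest of these was 192.4 kb. At least 500 kb long were 40 gaps on 14 chromosomes, with 22.5% of the length, and the 10 longest alone held 25.1 Mb or 12.5%. Few runs lay near the minimum length: 7 uncovered runs had 9 bins (11.7 kb) and were left out, and 10 gaps had exactly 10 bins. At both sizes nearly every edge was formed by the domain of 1 list, namely 13 of 14 edges at 9 bins and 19 of 20 at 10 bins. The 57 runs below the minimum added up to 418.6 kb.

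**Figure D1:**
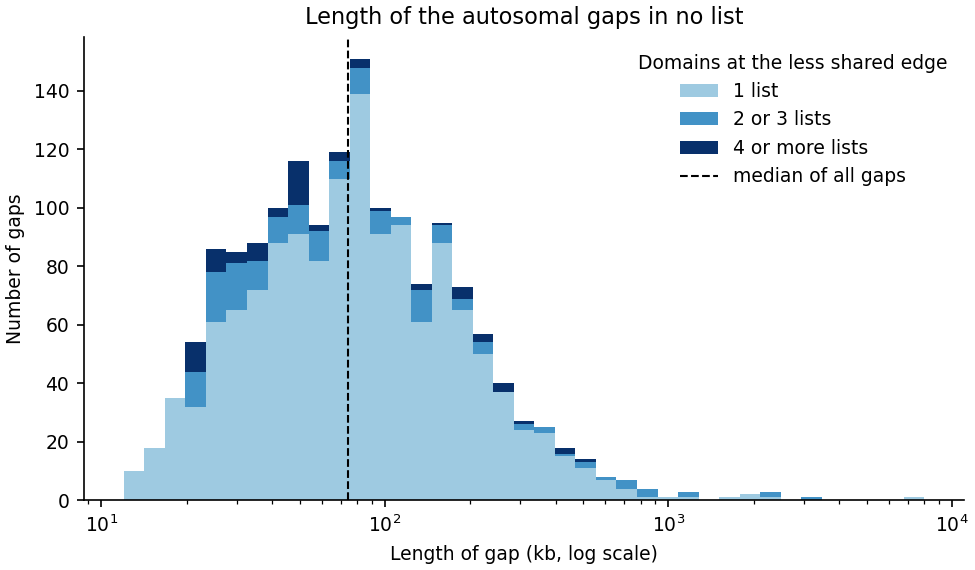
Histogram of the length of the 1607 gaps (kb, log scale) against their number, stacked by how many lists have a domain directly at the less shared of the 2 edges; the dashed line is the median, 74.1 kb. Gaps whose less shared edge has 1 list make up 1381 of the 1607 and 27 of the 40 gaps of at least 500 kb, and gaps with 4 or more lists at each edge have a median of 49.4 kb.

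Chromosome 7 had the largest share of its span in gaps and chromosome 15 the smallest. On chromosome 7 the share was 17.0% (123 gaps, 25.5 Mb), and without its longest gap it was 12.3%. Chromosome 8 followed with 13.5% (117 gaps), then chromosome 12 with 11.4% (96 gaps), chromosome 6 with 11.4% (140 gaps) and chromosome 14 with 11.0% (70 gaps). The lowest shares were 3.50% on chromosome 15 (37 gaps), 3.58% on chromosome 16 (40 gaps), 4.05% on chromosome 10 (55 gaps) and 4.34% on chromosome 18 (45 gaps). The median over the 19 autosomes was 7.01%. Number and length did not go together everywhere. Chromosome 6 had the densest gaps, 9.56 per 10 Mb, with a longest gap of only 562.9 kb, whereas chromosome 14 had 5.80 per 10 Mb and a longest gap of 3217.5 kb. The median length differed less between chromosomes, from 52 kb on chromosome 16 to 85.15 kb on chromosomes 6 and 14. Chromosomes 6 and 8 together had 12.4% of their span in gaps against 7.83% on the other 17. On these chromosomes the switched lists have few domains: line 34 covered 4.37% of chromosome 6 and 1.16% of chromosome 8, and line 37 covered 0.0355% and 0.280%. The part of this in the share of gaps was not tested.

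**Figure D2:**
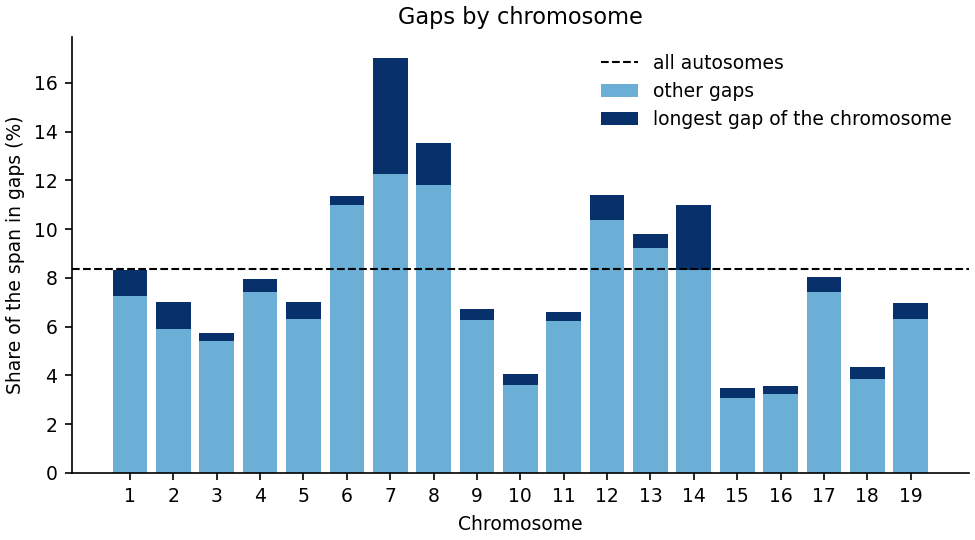
Share of the span of each autosome that lies in gaps (percent), with the longest gap of the chromosome in dark blue and the other gaps in light blue; the dashed line is the share over all autosomes, 8.35%. Chromosome 7 stands highest at 17.0%, of which its longest gap is a large part, and chromosomes 15 and 16 stand lowest, at 3.50% and 3.58%.

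The share of gaps at the start of the spans rested on chromosome 14. Of the first 5 Mb of each span 12.8% lay in gaps, compared with 6.32% of the last 5 Mb and 8.24% of the length between. Chromosome 14 alone gave 3.98 of the 12.2 Mb of gap in the first 5 Mb, and without it the shares were 9.14%, 6.24% and 8.25%. The share of the first 5 Mb was above that of the length between on 12 of the 19 autosomes.

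Some gaps lay close to other gaps, but no reference for their spacing was computed. The shortest distance between 2 gaps was 1.3 kb, which is 1 bin. The median distance from a gap to the nearest other gap on its chromosome, edge to edge, was 211.9 kb, with 58.5 kb and 642.2 kb at the quartiles and 7.97 Mb at the most. Within 100 kb of another gap were 528 of the 1607 gaps (32.9%), and within 1 Mb were 1349 (83.9%). With only the higher-scoring 50% of each list, 49 gaps (4.60%) had another gap within 100 kb. The distance was shortest on chromosome 7, with a median of 88.4 kb, and longest on chromosome 15, with 1287 kb. Chaining gaps that lie within 100 kb of each other joined these 528 gaps into 196 clusters, of which 140 held 2 gaps, 20 held 5 or more and the largest held 13. The clusters contained 92.7 Mb or 46.1% of the gap length, and 88.2% of their extent was gap. Gaps in clusters were only slightly longer than lone gaps, with medians of 79.3 and 71.5 kb.

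The clusters with the most gap length were nearly unbroken. The first, on chromosome 7 from 39063701 to 46413900 (mm9), held 2 gaps and only 2.6 kb of covered sequence, which belonged to all 3 2i/LIF lists and to the switched list of line 34. The second, on chromosome 14 from 4518801 to 8500700, held 2 gaps parted by 5.2 kb, which both switched lists and the S list of line 37 covered and no other list did. Another pair lay on chromosome 7, from 20575101 to 24138400 (4 gaps, 97.9% gap) and from 7165601 to 10663900 (9 gaps, 97.3% gap). The fifth, on chromosome 12 from 21668401 to 25140700, held 7 gaps with 3.39 Mb. Of its 87.1 kb of covered sequence 2i/LIF line 37 covered 78 kb and switched line 34 74.1 kb, compared with 1.3 kb in XS line 32 and none in either S list. In 4 of these 5 clusters XS line 32 had no domain at all between the gaps.

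The 10 longest gaps lay on 6 chromosomes, 3 of them on chromosome 7. The longest ran on chromosome 7 from 39295101 to 46413900 (7118.8 kb, mm9) and made up 3.54% of all gap length. All 3 2i/LIF lists and the switched list of line 34 ended at its left edge, while its right edge was formed by a domain of S line 37 alone. The nearest domains of switched line 37 and of XS lines 30, 31 and 32 were 232.7, 253.5, 266.5 and 267.8 kb away. S line 35 has no domain on chromosome 7. One edge was therefore common to 4 lists. Their domains there form an island of only 2.6 kb, and left of it lies another gap, which begins at 39063701. No list has a domain in that other gap, so on this side the distances of the other 4 wide lists have a lower limit set by it. Their narrow range is thus not a finding about these lists.

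The second, on chromosome 14 from 4518801 to 7736300 (3217.5 kb), began 1 bin after the start of the chromosome's span. That first bin, from 4517501 to 4518800, was covered by 2i/LIF lines 34 and 35, switched line 37 and XS line 31. The edge on the right was shared by both switched lists and S line 37. XS lines 30 and 32 were 926.9 and 1405.3 kb away, the farthest of the wide lists. This gap thus lies at the very start of the span.

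The third and the sixth longest were also on chromosome 7, from 21574801 to 23936900 (2362.1 kb) and from 7525701 to 9590100 (2064.4 kb). Both switched lists stood at the left edge of the former, and switched line 34 alone at that of the latter. The right edge was formed by 2i/LIF line 34 in the former and by 2i/LIF line 35 in the latter. No XS list touched either gap, and the nearest XS domain was 201.5 kb away for the former and 271.7 kb away for the latter.

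Chromosome 8 held 2 of the 10. The gap from 19984901 to 22180600 (2195.7 kb) had domains of both S lists at its left edge and domains of 2i/LIF lines 34 and 35 and XS line 30 at its right edge. The one from 56197701 to 57909800 (1712.1 kb) was bounded by the widest lists, 2i/LIF line 35 and XS line 31. For both the nearest domains in switched lists were far: 6962.8 and 7017.4 kb from the former, and 14989 and 43230.2 kb from the latter, in lines 34 and 37.

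On chromosome 1 the gap from 85342401 to 87471800 (2129.4 kb) was the only one of the 10 with both S lists at both edges. Both switched lists also ended at its left edge, and the other wide lists lay 91 kb (XS line 31) to 318.5 kb (XS line 32) away. On chromosome 2 the gap from 174894201 to 176857200 (1963 kb) had all 5 2i/LIF and switched lists at its left edge and the switched list of line 34 also at its right edge. XS lines 30, 31 and 32 were 104, 104 and 166.4 kb away, so no XS list touched this gap.

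The last 2 were on chromosome 12 from 23255701 to 24438700 (1183 kb) and on chromosome 14 from 42564601 to 43719000 (1154.4 kb). The former was touched by all 8 wide lists, 7 of them at the left edge. The latter was bounded on both sides by switched line 34, with S line 37 also at the left edge, and XS lines 30 and 32 were 1765.4 and 1515.8 kb away. On the 13 autosomes without one of these gaps the longest gap ranged from 339.3 kb on chromosome 16 (16231801 to 16571100) to 1055.6 kb on chromosome 5 (94822001 to 95877600).

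Few lists ended at the edges of most gaps. At each edge a domain of at least 1 list ends; in 1050 gaps (65.3%) exactly 1 list did so at each edge, of which 282 had the same list at both and 768 (47.8% of all gaps) had a different list at each. The list of 2i/LIF line 35 accounted for 142 of the 282, switched line 34 for 57, XS line 31 for 39 and switched line 37 for 26. XS line 30 and S line 35 accounted for none.

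A smaller kind of gap had edges shared by many lists, which need not be the same lists at both edges. At least 4 lists ended in the same bin at each edge in 72 gaps (4.48%), which lay on all 19 autosomes and had a median length of 49.4 kb, compared with 76.7 kb for gaps with 1 list at each edge. In 8 of them all 8 wide lists ended at both edges. The longest of the 72 was on chromosome 4 from 60686601 to 61232600 (546 kb, mm9), with 7 wide lists at the left edge and 4 at the right. Next came a gap of 418.6 kb on chromosome 14 (26694201 to 27112800) and one of 405.6 kb on chromosome 1 (184922401 to 185328000). The other two had 299 kb, on chromosome 5 (143206701 to 143505700), and 270.4 kb, on chromosome 4 (31389801 to 31660200). The gaps on chromosome 1 and chromosome 5 had all 8 wide lists at the left edge and 7 at the right; XS line 30 was missing at the right edge of the former and XS line 32 at that of the latter. The surroundings of these 72 gaps were covered by most lists. In the first 13 kb beyond their edges 2i/LIF lines 34, 35 and 37 covered 75.5%, 96.9% and 81.7%, and the switched lists 76.3% and 77.7%. In XS the values were 67.0%, 80.6% and 43.1% in lines 30, 31 and 32. Around gaps with 1 list at each edge the same values ran from 3.43% (XS line 32) to 42.7% (2i/LIF line 35) among the wide lists. Both kinds of gap were chosen by the number of lists in the bin at each edge, where the first 13 kb begin. The contrast therefore follows largely from that choice and is not a finding about the surroundings.

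Ends that 4 or more lists share were mostly gap edges, which the rule itself makes likely. Apart from the ends of the spans, domains of the 10 lists began or ended at 41317 different positions, of which 3214 were gap edges. At 783 of the gap edges (24.4%) 2 or more lists ended, compared with 2410 of the 38103 other positions (6.32%). At 326 positions 4 or more lists ended, and 287 of these (88.0%) were gap edges; all 82 positions shared by 7 or 8 lists were. Much of this follows from the rule, since beyond a position where many lists end few lists are left that could cover the next bin. Where 7 or 8 lists end, almost none is left, so these counts are not a finding about gaps.

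The lists differed in how near they came to gaps. Among the 2i/LIF lists, the median distance from a gap to the nearest domain was 41.6 kb in line 34, 0 kb in line 35 and 22.1 kb in line 37. In switched cultures it was 14.3 kb in line 34 and 15.6 kb in line 37. In XS lines 30, 31 and 32 it was 206.7, 23.4 and 299 kb. The 2 farthest wide lists were therefore both XS lists, but XS line 31 lay among the lists of the other groups. The widest lists are 2i/LIF line 35 and XS line 31, with 78.2% and 72.8% of the span. Line 34 in 2i/LIF covered 34.6% of the span and XS line 30 covered 36.3%, with median distances of 41.6 and 206.7 kb. The part of width in these distances was not tested, and the same lists define the edges of the gaps.

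A domain of 2i/LIF line 35 touched 1022 of the 1607 gaps (63.6%). Switched line 34 touched 663 (41.3%), switched line 37 558 (34.7%), XS line 31 539 (33.5%), 2i/LIF line 37 421 (26.2%) and 2i/LIF line 34 363 (22.6%). XS lines 30 and 32 touched 191 (11.9%) and 163 (10.1%). All 8 wide lists had a domain within 100 kb of 186 gaps (11.6%), and 8 gaps had no wide list that near.

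Chromosomes on which a list has few domains gave large distances. On chromosomes 6 and 8, which hold 257 gaps, the median distance to the switched list of line 34 was 2.21 Mb and to that of line 37 it was 33.3 Mb. Only 7 of these gaps touched a domain of switched line 34 and 0 touched one of line 37, whereas 192 touched one of 2i/LIF line 35. On chromosome 13, with 97 gaps, the median distance to XS line 32 was 11.4 Mb and no gap touched it. With chromosomes 6, 8 and 13 left out, the medians were 1.3 and 6.5 kb for switched lines 34 and 37 and 195, 23.4 and 263.9 kb for XS lines 30, 31 and 32.

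The S lists were near few gaps, as their 26 and 130 domains allow. Line 37 in its S culture had a median distance of 7.93 Mb, and touched 145 gaps. Line 35 had no domain on the chromosomes of 846 gaps; over the other 761 the median was 29.6 Mb, and it touched 24.

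**Figure D3:**
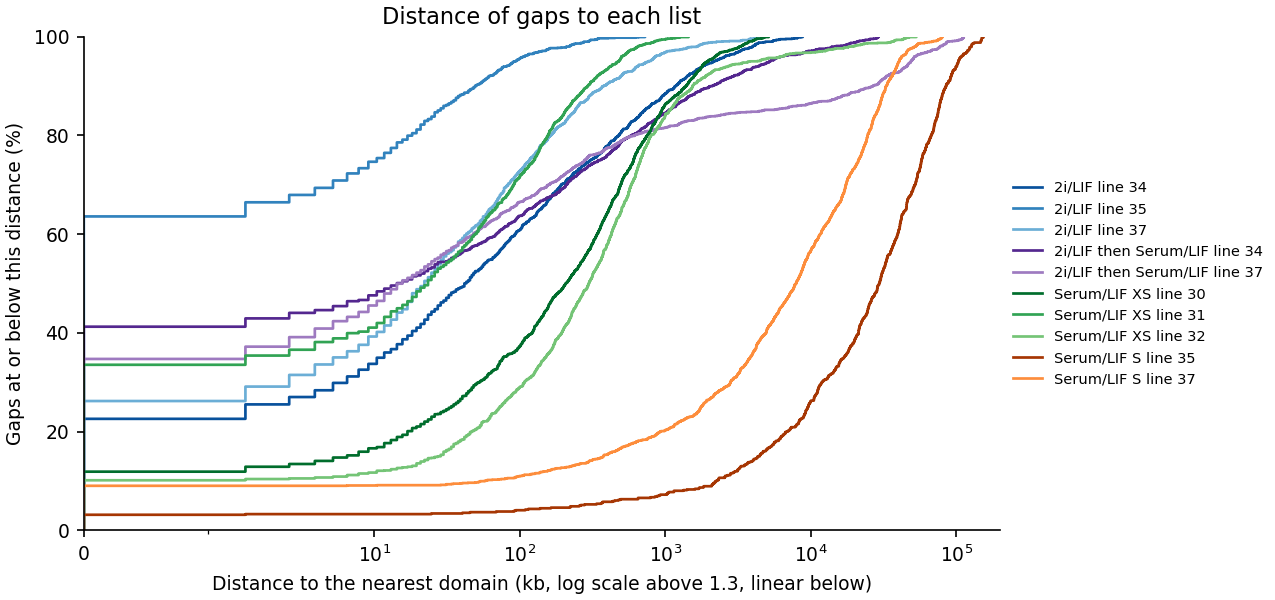
Cumulative share of gaps (percent) by distance to the nearest domain of each of the 10 lists (kb, log scale above 1.3 kb and linear below), coloured by culture; for S line 35 only the 761 gaps on chromosomes where it has a domain are counted. The curve of 2i/LIF line 35 starts at 63.6% of gaps touched, XS lines 30 and 32 start at 11.9% and 10.1%, and switched line 37 reaches 100% only at 112.8 Mb.

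To see how much of the gaps is covered by a list that had no part in choosing them, gaps were built again from the other 9 lists. The left-out list was then laid over them. Sequence in which no domain could be called would be left uncovered by every list alike. Repeats and assembly gaps were not examined, so part of a lower cover may be fixed in advance. Each of the 8 wide lists covered a smaller share of such gaps than of the rest of the span. In 2i/LIF, lines 34, 35 and 37 covered 0.805%, 30.8% and 1.04% of the gaps against 37.7%, 84.7% and 48.8% of the rest. In switched cultures, lines 34 and 37 covered 12.4% and 4.39% against 45.6% and 45.1%. XS lines 30, 31 and 32 covered 0.470%, 19.2% and 0.917% against 39.6%, 78.9% and 33.2%. Any 2 sets of 9 lists share 8, so these values are not independent of each other and no p is given. Lines 34, 35 and 37 have 2 or 3 lists each, so a left-out list can share its line with lists that built the gaps. With all lists of the same line left out, switched lines 34 and 37 covered 12.5% and 4.73% of the gaps against 45.6% and 45.2% of the rest. In 2i/LIF, lines 34, 35 and 37 then covered 0.928%, 30.8% and 1.46% against 38.2%, 84.7% and 49.1%. XS lines have 1 list each, and their values are those above. The widest lists entered these gaps most, and lists of low share in them were found in 2i/LIF and XS alike.

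Leaving out a whole culture, with other lists of the same lines kept, raised the cover and kept the direction in every wide list. Without the 2i/LIF lists there were 2073 gaps with 358.9 Mb, of which 2i/LIF lines 34, 35 and 37 covered 7.17%, 42.6% and 16.5% against 39.4%, 84.4% and 49.7% of the rest. Without the switched lists there were 2191 gaps with 296.1 Mb, and switched lines 34 and 37 covered 28.8% and 22.2% against 44.3% and 44.2%. Without the XS lists there were 2278 gaps with 318.7 Mb, and XS lines 30, 31 and 32 covered 10.8%, 35.9% and 19.4% against 40.2%, 78.4% and 32.2%. Places that the lists of the other cultures left uncovered were thus covered less by each wide list of the left-out culture too. The limit for sequence in which no domain could be called holds here as well. Each culture alone, with fewer lists, necessarily left more uncovered. Gaps of the 3 2i/LIF lists held 483.4 Mb, those of the 3 XS lists 604.9 Mb and those of both switched lists 1292.1 Mb. The gaps common to all lists made up 41.6%, 33.3% and 15.6% of these. The groups differ in the number and width of their lists, so these shares do not compare cultures.

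**Figure D4:**
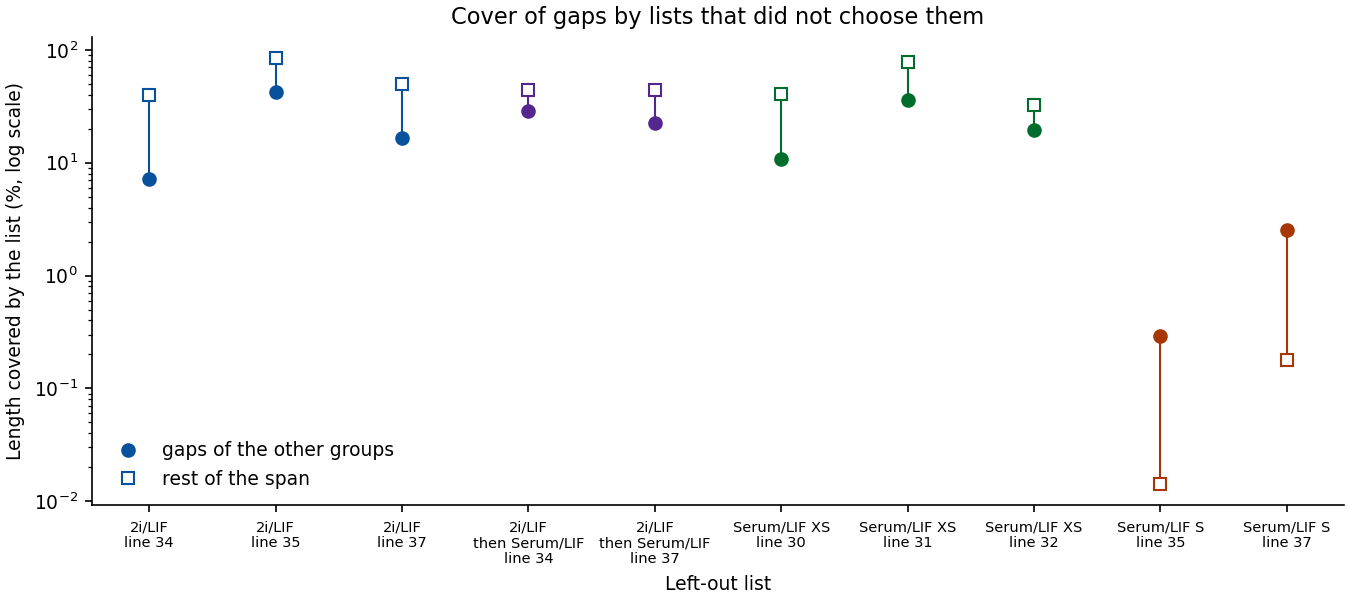
Length covered by each list (percent, log scale) inside gaps built without the lists of its own culture (filled circles) and in the rest of the span (open squares). In all 8 wide lists the circle lies below the square, while in both S lists it lies above, at 0.294% against 0.0142% and at 2.56% against 0.177%.

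Over gaps built without either S list, the S lists went the other way. Over the 1564 gaps of the 8 wide lists, which take up 8.57% of the span, S line 35 covered 0.294% of the gap length and 0.0142% of the rest, a ratio of 20.7. S line 37 covered 2.56% and 0.177%, a ratio of 14.4. Of the length of these lists 66.0% and 57.5% lay in the gaps, compared with 3.08% to 8.40% for wide lists over the gaps built without their culture. Wholly inside a gap lay 15 of the 26 domains of line 35 and 54 of the 130 of line 37. The S lists are small: 0.607 Mb of line 35 and 5.28 Mb of line 37 lay in these gaps. With the S list of line 37 also used to build the gaps, 0.0078 Mb of line 35 was left in them. Line 35 then covered 0.00387% of the gaps and 0.0413% of the rest, which is the direction of the wide lists. With the S list of line 35 used in turn, line 37 kept its direction, with 2.26% of the gaps and 0.205% of the rest. Of the 26 domains of line 35 and the 130 of line 37, 4 and 14 began in the first 5 Mb of a span. Wholly inside a gap of the 8 wide lists were 2 and 4 of these.

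In the gaps of all 10 lists, S domains therefore appear as bounds and as islands. Of the S domains of lines 35 and 37, 73.1% and 78.5% touched a gap, and 46.2% and 51.5% had a gap at both ends. Among the wide lists 3.57% (XS line 32) to 36.1% (switched line 34) of the domains touched a gap, and at most 9.05% had one at both ends. An S domain stood at an edge of 149 gaps (9.27%), and at 107 of them it was the only domain at some edge. Of the 40 gaps of at least 500 kb, 8 had an S domain at an edge (20%), and of the 10 longest, 5 had one. Over all gaps, however, those next to an S domain had a median length of 70.2 kb, compared with 75.4 kb for the others. Because a domain in otherwise uncovered sequence must border a gap, these counts follow in part from the rule; the shares over gaps of the 8 wide lists above do not use the S lists.

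Beyond the edges the XS lists differed from the other wide lists in how soon domains returned. Around gaps built from the other 9 lists, the cover of the left-out list was compared at 100 to 500.5 kb from the edges with its cover of all sequence outside gaps. XS lines 30, 31 and 32 covered 28.2%, 69.5% and 15.3% at that distance and 39.6%, 78.9% and 33.2% of all sequence outside. Their mean difference was -12.9 ± 4.47 percentage points (SD, n = 3). In 2i/LIF, lines 34, 35 and 37 covered 42.6%, 82.2% and 53.0% at that distance and 37.7%, 84.7% and 48.8% outside. Their difference was 2.22 ± 4.08 points (SD, n = 3). In switched cultures, lines 34 and 37 covered 52.8% and 47.4% against 45.6% and 45.1%, a difference of 4.78 ± 3.43 points (SD, n = 2). Every XS list was lower near gaps than elsewhere, 4 of the 5 other wide lists were higher, and no XS value overlapped those of the other wide lists, whereas 2i/LIF and switched values overlapped. Lines 34 and 37 have a list in both of these cultures. From 2i/LIF to switched, the difference went from 4.92 to 7.20 points in line 34 and from 4.20 to 2.35 in line 37, so these lines had no common direction. No test is given, because the sets of 9 lists share 8 and the comparison was chosen after the values were seen. For XS lists culture and line cannot be told apart. The groups also differ in how many edges they form. Of the gaps of all lists with 1 list at each edge, 2i/LIF lines 34, 35 and 37 bounded 91, 591 and 122. Switched lines 34 and 37 bounded 334 and 250, and XS lines 30, 31 and 32 bounded 40, 268 and 57. Most such edges thus belong to 2i/LIF and switched lists, which share lines 34 and 37. A left-out XS list was compared beside domains of other lines. The part of this in the contrast was not tested.

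Close to the edges every wide list covered less than its share of all sequence outside gaps. In the first 13 kb XS line 32 covered 5.18%, XS line 30 8.54%, and 2i/LIF lines 34 and 37 16.9% and 19.6%, while the widest lists, XS line 31 and 2i/LIF line 35, covered 41.8% and 56.6%. Switched lines 34 and 37 covered 39.1% and 25.9%. At 1 to 2 Mb the cover by XS lines 30, 31 and 32 still differed from that of all sequence outside gaps by -3.19, -1.94 and -5.62 points. With chromosomes 6, 8 and 13 left out the differences at 100 to 500.5 kb were -13.8 ± 4.82 points in XS (SD, n = 3), 1.81 ± 4.18 in 2i/LIF (SD, n = 3) and 7.84 ± 3.02 in switched cultures (SD, n = 2). XS was again the only group with a negative mean. Within lines the 2i/LIF and switched values were then 3.85 and 9.97 points in line 34 and 4.58 and 5.70 in line 37.

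**Figure D5:**
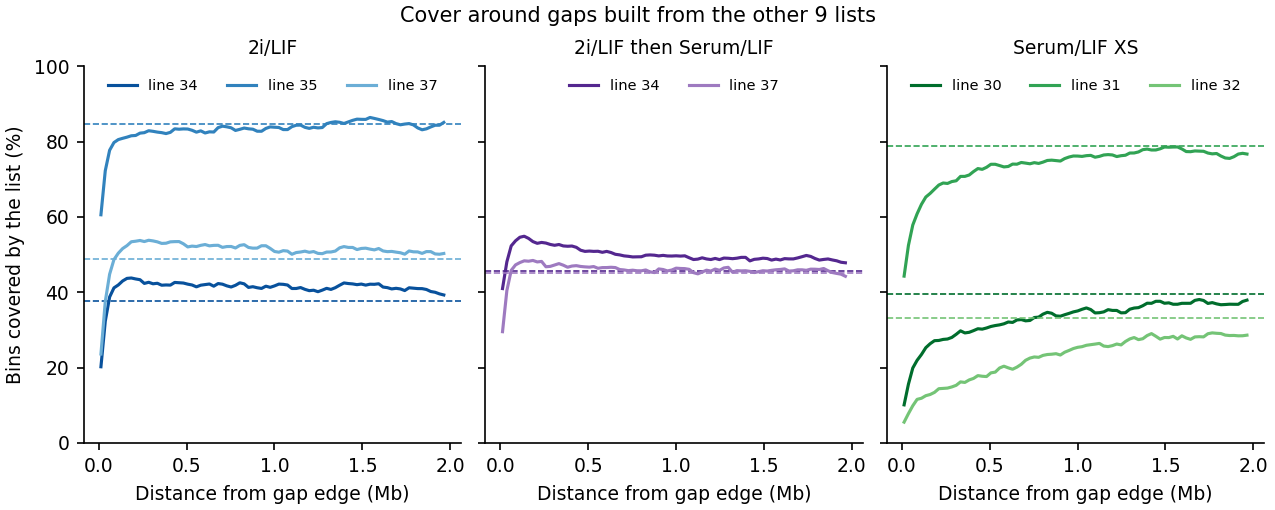
Share of bins covered by a list (percent) against the distance from the edges of gaps built from the other 9 lists (Mb), in 1 panel per culture; solid lines are single lists and dashed lines their cover of all sequence outside gaps. The 2i/LIF lists of lines 34 and 37 and the switched lists rise above their dashed lines close to the edge, whereas the XS lists stay below theirs, as at 100 to 500.5 kb with 28.2%, 69.5% and 15.3%.

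The value in column 5 of the lists, which the choice of gaps did not use, was more often above 0 in domains that touch a gap than in other domains in 7 of the 8 wide lists, all but XS line 32. It serves here only by its sign. In switched line 34 it was above 0 in 156 of 674 touching domains (23.1%) and in 157 of 1194 others (13.1%). In switched line 37 it was so in 24 of 567 (4.23%) and 7 of 2370 (0.295%). The 2i/LIF lists showed the same order, with 19 of 353 touching and 32 of 2247 other domains in line 34, 38 of 1098 and 10 of 2086 in line 35, and 17 of 416 and 4 of 2731 in line 37. In the XS lists such domains were rare everywhere: 1 of 197 and 7 of 2337 in line 30, 5 of 593 and 5 of 1620 in line 31, and 0 of 157 and 2 of 4235 in line 32. In the S lists the value was above 0 in every domain, touching or not. Touching domains were also shorter than the others in 2i/LIF lines 34, 35 and 37, with medians of 158.6, 305.5 and 175.5 kb against 197.6, 396.5 and 228.8 kb. The median was also lower in switched line 37 (156 against 180.7 kb), in XS lines 30 (170.3 against 204.1 kb) and 32 (49.4 against 80.6 kb) and in S line 35 (26 against 32.5 kb). It was higher in switched line 34 (299.65 against 286.65 kb), XS line 31 (418.6 against 385.45 kb) and S line 37 (46.15 against 27.3 kb), so length had no common direction.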

How the data were processed

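H2A.X was mapped by native ChIP-seq, and 10 of the 15 samples have a list of domains here; the other 5 (1 H2A.X sample, 3 inputs and 1 IgG control) were not analysed here. Reads were aligned with Bowtie2 2.0.6 to mm9, as the submitters' processing notes name them. Which caller made the domains, with which settings and against which control, no label or header states. The lists are named by the authors as decreased against a control; a score per domain deposited by the authors served to take the higher-scoring domains of a list in 1 alternative, and another score, in column 5, served by its sign. Neither has a stated normalization.

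All starts and ends were multiples of 1300 bp. Bins, gaps, distances and cover were computed from columns 1 to 3 with Python 3.11.15, numpy 2.4.6, pandas 2.3.3 and matplotlib 3.10.9. Coordinates are 1-based. The span always came from all 10 lists. Near a gap, bins in other gaps were left out of the cover. The gap finder was tested on simulated data: in 5 of 5 simulations all planted gaps were recovered. In these simulations 1 list covered every bin outside the planted gaps, unlike any real list, so the result checks only that the code runs correctly. Groups were taken from the titles. Regions named are the 10 longest gaps, the longest of each other autosome, the 5 clusters with the most gap length and the 5 longest gaps with 4 or more lists at each edge. The gaps, lists and comparisons were chosen with earlier results of these data known. The gene table at hand is of another build (21 domains on chromosome 1 end beyond its last gene, at 195291439), so no gene was assigned, no sequence is printed, and repeats and assembly gaps were not examined. The depth of the samples is unknown.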

Additional observations from a re-analysis of the deposited data

How the results depend on the processing

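No result comes from a test, so the values are compared by size only. No paired test was run, because the results come from no test between groups. For lines with both a 2i/LIF and a switched list, the values within lines beyond the gap edges are given above. With a minimum of 5, 20 and 77 bins the gap length was 201.7, 198.1 and 149.1 Mb; the number was 587 at 77 bins, where 127 gaps had a neighbour within 100 kb, and the median length was 81.9 kb at 20 bins and 169 kb at 77. Only domains of at least 10 kb gave 201.5 Mb. With the higher-scoring 50% of each list there were 1066 gaps with 308.2 Mb, a median of 140.4 kb and 49 gaps with a neighbour within 100 kb; the cause was not tested. Counting bins in at most 1 list as uncovered gave 2634 gaps, 388.2 Mb, a median of 88.4 kb and 965 gaps with a neighbour; cover by left-out lists was not computed in this setting. Without the 2 widest lists there were 3420 gaps, 530.7 Mb, a median of 88.4 kb and 1574 gaps with a neighbour. Gap length was 206.6 Mb without both S lists, 155.8 Mb without chromosomes 6, 8 and 13, and 196.4 Mb with 1 Mb trimmed from each end of each span. In settings added after seeing the data, leaving out the lists of 2i/LIF, 2i/LIF then Serum/LIF or XS gave 358.9, 296.1 and 318.7 Mb and medians of 101.4, 85.8 and 87.1 kb. Leaving out 1 list at a time gave 1574 to 2082 gaps, 201.3 to 291.0 Mb, medians of 74.1 to 89.05 kb and 498 to 690 gaps with a neighbour; the highest length and median were without 2i/LIF line 35 and the highest number without XS line 31. The difference between the share of gaps and the share of the rest that a left-out list covers, -34.2 percentage points on average over the 10 lists, kept its sign in all 24 settings tried, among them leaving out all lists of the same line, added after seeing the data (-34.1), and ran from -38.4 to -27.8 with 1 list left out. The depth of the lists is unknown, so what it limits could not be judged. Only S line 37 had a positive difference of its own, 2.06 points.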
